A study of Homo sapiens with 6 samples.

Results

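The endocytic BAR, dynamin and clathrin genes described here are BIN1, AMPH, DNM1, DNM2, CLTA, CLTB, CLTC, ITSN1, ITSN2 and PICALM. Their members were taken by gene symbol from a deposited table of splicing events, and the list was selected on earlier results of this same comparison. These 10 genes held 842 of the 721551 events of the table, which named 30275 genes by symbol. The events were 263 exon entries, 217 intron entries, 218 alternative acceptor forms and 144 alternative donor forms. All libraries came from SKNBE2, an established human neuroblastoma line whose genotype is labelled as MYCN amplified. The 3 Control libraries were compared with 3 libraries from cells given DFMO at 250 µM for 4 days. DFMO (difluoromethylornithine) blocks ornithine decarboxylase, the enzyme that makes the polyamine putrescine. The labels do not say whether the libraries of a group came from separate cultures, so p-values measure only the spread between these libraries, which may be technical.

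Clathrin-mediated endocytosis buds small vesicles from the plasma membrane. Adaptors such as PICALM gather cargo and lipid under a clathrin coat built of the heavy chain CLTC and the light chains CLTA and CLTB. BAR-domain proteins such as BIN1 and its paralog AMPH bend the neck of the bud and bind dynamin, and the dynamin GTPases DNM1 and DNM2 cut it. The intersectins ITSN1 and ITSN2 are scaffolds that hold these proteins together. In neurons the same steps recycle synaptic vesicles, and several of these genes are known for exons that are used in neural tissue and little elsewhere.

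The reads summed over all events ran from 77648922 to 103250467 per library, with one read able to count in several events. Tests covered events that scored LOW or higher for coverage, with 10 or more reads, in all 6 libraries, and whose mean inclusion lay between 5% and 95%. Of the 263 exon entries of the 10 genes, 193 had that coverage, 47 of them lay under 5% and 130 over 95%, and 16 were tested. The tested exons belonged to BIN1, PICALM, DNM1, DNM2, ITSN1 and CLTC. Calls needed an adjusted p from limma under 0.05 together with means 10 or more points apart. All 13 markers of noradrenergic neuroblasts were measured in these libraries, and 2 of 11 markers of mesenchymal or other cells were, CD44 and FOSL2, whose median level was 0.625 in Control against 4.23 for the first list, on the scale of log2(1 + scaled reads) defined further on. The part of these markers in the results was not tested.

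Of the 16 tested exons, 3 were called higher with DFMO and 1 lower. These 4 calls became 1 to 2 when any 1 library was left out, the PICALM 129-nt entry being called each time, and 0 when the fit had no variance trend. Over all 7500 tested exons of the table, 2.71% were called higher and 0.747% lower. The 2 groups did not overlap for 10 of the 16 exons, 7 with DFMO higher and 3 with DFMO lower, against 26.2% of all tested exons. The median difference was 3.32 points for the 16 exons and 1.24 points for all. Because the genes were selected on results of this comparison, these counts are a description and nothing is read from them.

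The sequences below carry the called choices, each read 5′ to 3′ from GENCODE release 29 transcripts on GRCh38. The BIN1 exons of 129 nt (chr2:127057473-127057601, minus strand) and 90 nt (chr2:127051154-127051243, minus strand) are coding in every protein-coding transcript that holds them. Capitals in the 90-nt exon mark the last 18 nt, which the table's 72-nt entry leaves out. The PICALM exons of 150 nt (chr11:85990250-85990399, minus strand) and 24 nt (chr11:85978070-85978093, minus strand) are wholly coding in 3 of 4 and 4 of 4 protein-coding transcripts that hold them. Capitals in the 150-nt exon mark its first 21 nt, which the table's 129-nt entry leaves out.
BIN1 129-nt exon: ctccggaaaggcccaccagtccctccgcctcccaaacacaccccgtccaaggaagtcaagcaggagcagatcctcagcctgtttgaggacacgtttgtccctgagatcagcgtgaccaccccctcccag
BIN1 90-nt exon: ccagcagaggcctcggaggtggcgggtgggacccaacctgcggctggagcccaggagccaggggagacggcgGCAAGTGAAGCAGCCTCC
PICALM 150-nt exon: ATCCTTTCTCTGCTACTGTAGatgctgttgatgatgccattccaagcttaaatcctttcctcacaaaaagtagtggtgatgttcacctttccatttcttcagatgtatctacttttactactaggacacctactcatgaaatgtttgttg
PICALM 24-nt exon: aatggcatgcattttccacaatac

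**Figure D1:**
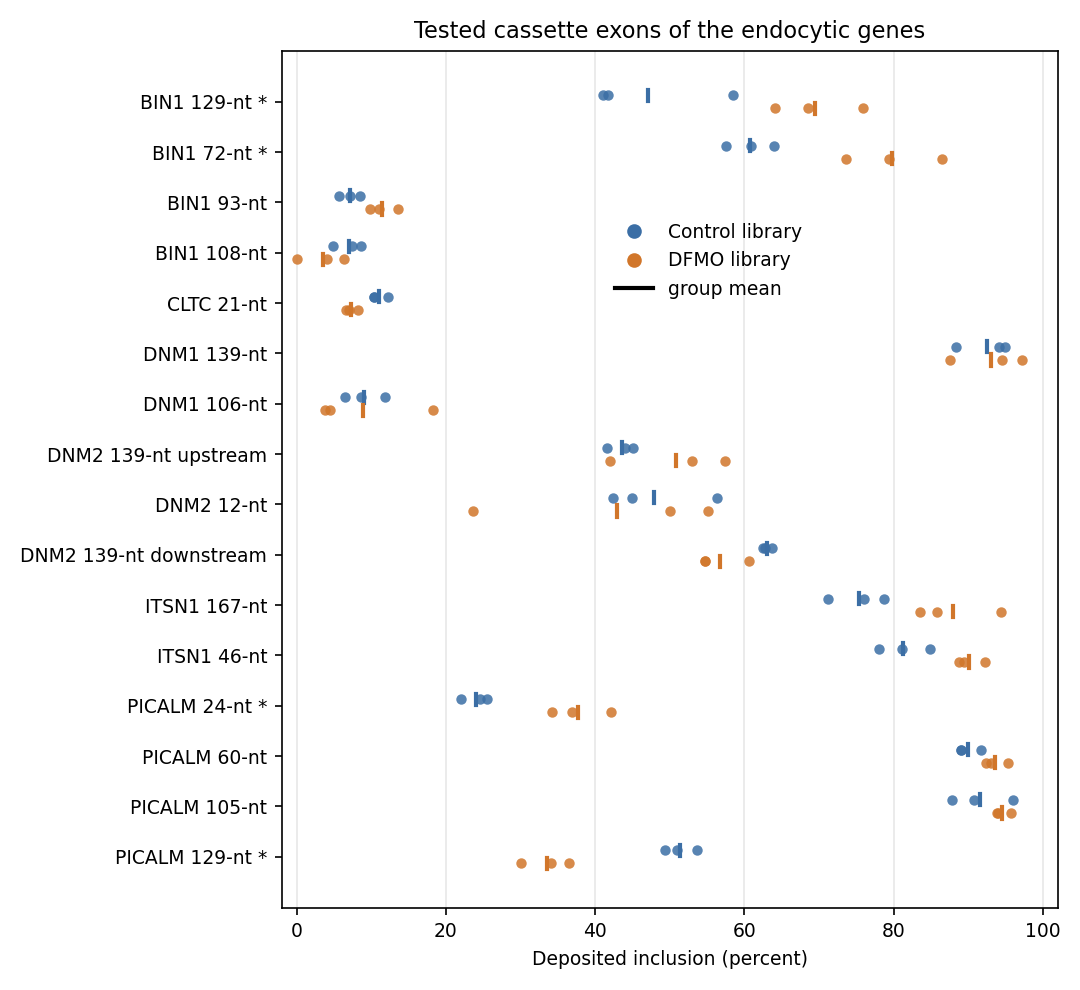
Deposited inclusion in percent (horizontal axis) of the 16 tested exons, with 1 point per library, Control in blue and DFMO in orange, bars at the group means and an asterisk at the 4 called exons. The BIN1 129-nt exon runs from 41.1% to 58.4% in Control and from 64.0% to 75.9% with DFMO, and the PICALM 129-nt entry from 49.4% to 53.6% and from 30.1% to 36.5%.

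BIN1 (amphiphysin II) had the largest difference among the 16 tested exons. Its 129-nt exon belongs to the stretch known from brain isoforms to bind clathrin and the AP-2 adaptor. Inclusion was 58.4%, 41.1% and 41.7% in the Control libraries and 68.5%, 64.0% and 75.9% in the DFMO libraries. All DFMO libraries were above all Control libraries, and Control replicate 1 stood closest to them. The means were 47.1% ± 9.85 (SD, n = 3) and 69.5% ± 5.98 (SD, n = 3), a difference of 22.4 points and of 1.36 on the log2 odds scale with an SE of 0.33. Behind each percent were 95 to 224 reads. The call was lost without Control replicate 2 (19.4 points), Control replicate 3 (19.7 points), DFMO replicate 1 (22.9 points) or DFMO replicate 3 (19.2 points). The junction entering the exon had more reads than the junction leaving it in every library, for example 99 and 44 in Control replicate 1.

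The second called BIN1 exon is listed as 72 nt long (chr2:127051172-127051243), a form that no annotated BIN1 transcript holds. Its inclusion was 64.0%, 57.5% and 60.9% in Control and 73.6%, 86.4% and 79.4% with DFMO, a difference of 19.0 points with no overlap. This call was lost when any library but DFMO replicate 1 was left out (15.7 to 20.6 points). The table's own donor entry for this exon showed which end was used. All of its 58, 36 and 70 Control reads and 49, 55 and 48 DFMO reads left from the donor of the 90-nt exon, and the 72-nt donor had 0. The entry therefore measures the annotated 90-nt exon printed above. That exon is coding in 9 of 11 protein-coding BIN1 transcripts, the 129-nt exon in 4. The 2 exons are neighbours in 2 of the 4 protein-coding transcripts that hold both, and the others have 1 or more exons of the same stretch between them. The read counts of BIN1 entries sum sets of junctions, and how many reads these 2 entries share could not be counted, so they are not taken as independent.

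The other BIN1 exons named here were mostly skipped, while 11 of the 19 covered exon entries of the gene had a mean over 95%. The 93-nt exon (chr2:127068163-127068255), which lengthens the BAR domain in brain isoforms, had 8.50%, 7.21% and 5.69% in Control and 10.99%, 9.80% and 13.6% with DFMO. The groups did not overlap, but the difference of 4.34 points did not pass the test (limma adjusted p = 0.387). Between the 129-nt and 90-nt exons lie 3 more exons of the clathrin-binding stretch. The upstream 108-nt exon (chr2:127053905-127054012) had 8.65%, 4.89% and 7.35% in Control and 6.29%, 4.11% and 0% with DFMO (limma adjusted p = 0.601). The 24-nt exon (chr2:127053422-127053445) stood between 0% and 3.29% in the 6 libraries. The muscle-associated 45-nt exon (chr2:127060596-127060640) stood between 0% and 1.23%. A 0 there, with 80 to 125 reads, allows at most 2.4% to 3.75%, counting 3 reads as the limit and counting error only. That limit is on the high side, because an included exon is read at 2 junctions.

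The downstream 108-nt exon of BIN1 (chr2:127052255-127052362) was under the 5% filter, so the main fit left it out. Its inclusion was 0%, 0% and 0.6% in Control against 4.72%, 5.06% and 9.99% with DFMO. It was nearly unread in Control and read in every DFMO library, on 37 to 71 reads per library. In the alternative without the percent filter this exon did not pass the test (limma adjusted p = 0.317). Of 26 covered exons of the 10 genes with a mean above 0% and under 5%, 3 had DFMO above Control in all libraries and 0 had it below. Of all 12631 such exons, 5.19% had it above. The other 2 are CLTB exons described further on. By the measure of mean absolute distance over the 6 libraries, the tested exons of other genes most like the BIN1 129-nt exon were in ZSCAN32 (78 nt, 4.88 points), CTBP2 (202 nt, 5.28 points) and GPCPD1 (76 nt, 5.29 points).

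PICALM, the adaptor that links clathrin to the lipid PIP2, had called exons in both directions. The entry listed as 129 nt (chr11:85990250-85990378) had 51.0%, 53.6% and 49.4% inclusion in Control. With DFMO it had 36.5%, 30.1% and 34.1%, and the groups did not overlap. The means were 51.3% ± 2.11 (SD, n = 3) and 33.6% ± 3.23 (SD, n = 3), so that it fell by 17.8 points. On the log2 odds scale the difference was -1.06 with an SE of 0.16. It had 415 to 632 reads per library, the most of the 4 called exons.

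The acceptor entry of the same exon showed that most reads used the 150-nt form. Its share of the acceptor choices was 95.7%, 92.7% and 88.4% in Control and 93.5%, 94.5% and 88.0% with DFMO, on 75 to 158 reads. The 129-nt form had 4.34%, 7.34% and 10.3% in Control and 6.48%, 3.05% and 12.0% with DFMO. The choice between the 2 acceptors thus overlapped fully between the groups (limma adjusted p = 0.953 for the 150-nt form), while inclusion of the exon as a whole did not.

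A PICALM intron entry was also called, the 6447-nt intron before this exon (chr11:85990379-85996825). Its deposited retention was 29.3%, 29.7% and 26.6% in Control and 14.6%, 14.0% and 12.8% with DFMO. Of all tested introns, 3.8% were called. Reads across its upstream end numbered 0, 2 and 0 in Control and 0 in each DFMO library. Those across its downstream end numbered 123, 125 and 166 in Control, and 78, 73 and 73 in the DFMO libraries. That end lies inside the 21 nt that only the 150-nt form of the exon holds. Reads of the 150-nt exon therefore count there without the intron being kept, and the call is no measure of retention. When only introns with balanced reads at both ends were kept, 0 introns of the 10 genes were called. The other 3 tested introns, 2 of DNM1 and 1 of DNM2, did not pass the test, and the largest difference among them was -5.06 points (limma adjusted p = 0.313).

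**Figure D2:**
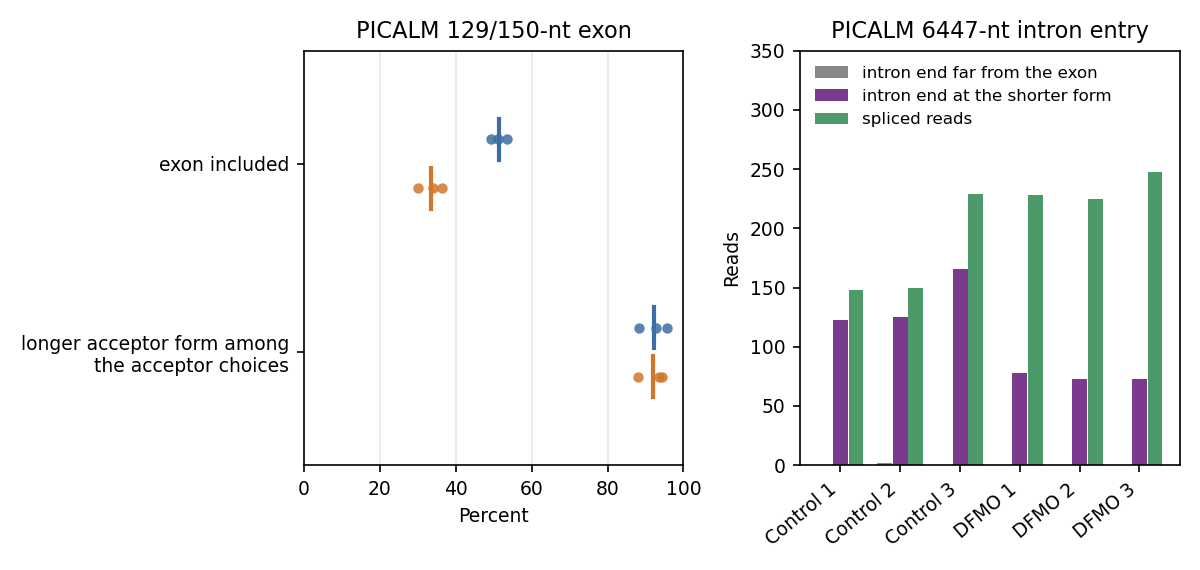
Left, PICALM exon inclusion and the share of the longer acceptor form in percent, with 1 point per library and bars at the group means. Right, reads per library at the 2 ends of the 6447-nt intron entry and on its spliced junction: the far end has 0 to 2 reads, and the end at the exon falls from 123 to 166 in Control to 73 to 78 with DFMO.

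The 24-nt exon of PICALM moved the other way. Its inclusion was 22.0%, 24.5% and 25.6% in Control and 36.8%, 42.1% and 34.2% with DFMO. All DFMO libraries lay above all Control libraries, with means of 24.0% ± 1.84 (SD, n = 3) and 37.7% ± 4.02 (SD, n = 3). The difference was 13.7 points. The call was lost when any single library was left out (11.5 to 15.4 points) and when the percent was taken from the junction reads as listed (9.44 points).

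The other tested exons of PICALM were included in most transcripts. The 60-nt exon (chr11:85976623-85976682) had 89.0%, 91.7% and 89.1% in Control and 95.3%, 93.1% and 92.4% with DFMO, with no overlap (limma adjusted p = 0.152). The 105-nt exon (chr11:85974708-85974812) had 95.9%, 90.8% and 87.8% in Control and 94.0%, 93.9% and 95.7% with DFMO, and the groups overlapped (limma adjusted p = 0.428). At another acceptor choice the 21-nt form had 38.0%, 40.6% and 34.2% in Control and 42.4%, 43.6% and 43.4% with DFMO. That difference of 5.52 points did not pass the test (limma adjusted p = 0.473).

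The intersectin ITSN1 had its 2 tested exons side by side, a 167-nt exon (chr21:33823487-33823653, plus strand) and a 46-nt exon (chr21:33826818-33826863). Neither length is a multiple of 3 but their sum of 213 nt is. The 167-nt exon had 78.8%, 71.2% and 76.1% in Control and 83.5%, 85.8% and 94.4% with DFMO. The 46-nt exon had 84.8%, 78.1% and 81.1% in Control and 88.7%, 89.5% and 92.2% with DFMO. Both were higher in all DFMO libraries than in all Control libraries, by 12.6 and 8.82 points. Neither was called (limma adjusted p = 0.1 and 0.182). The skipping reads of the entries were near each other in each library, 20, 31 and 27 against 18, 27 and 23 in Control and 22, 16 and 7 against 17, 10 and 7 with DFMO.

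These 2 values depended on a correction in the deposited percents. The table lists the reads on each junction, and for many exons the deposited percent scales inclusion up or down by a factor. That factor was nearly the same in every library for some exons and not for others. The factor on the odds had a median over the 6 libraries of 1.74 (1.72 to 1.77) for the 167-nt exon and 2.48 (2.21 to 2.79) for the 46-nt exon. From the junction reads as listed, the 167-nt exon had a mean of 63.9% in Control and 80.8% with DFMO, and the 46-nt exon 62.9% and 79.7%. Both then passed, by 16.9 points each (limma adjusted p = 0.0178 and 0.046), in an alternative chosen after seeing the data. Over the whole table that alternative called 276 of 7500 exons higher and 84 lower, against 203 and 56 in the main fit. The alternatives as a whole gave limma adjusted p-values of 0.0178 to 0.257 for the first exon and 0.046 to 0.489 for the second.

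**Figure D3:**
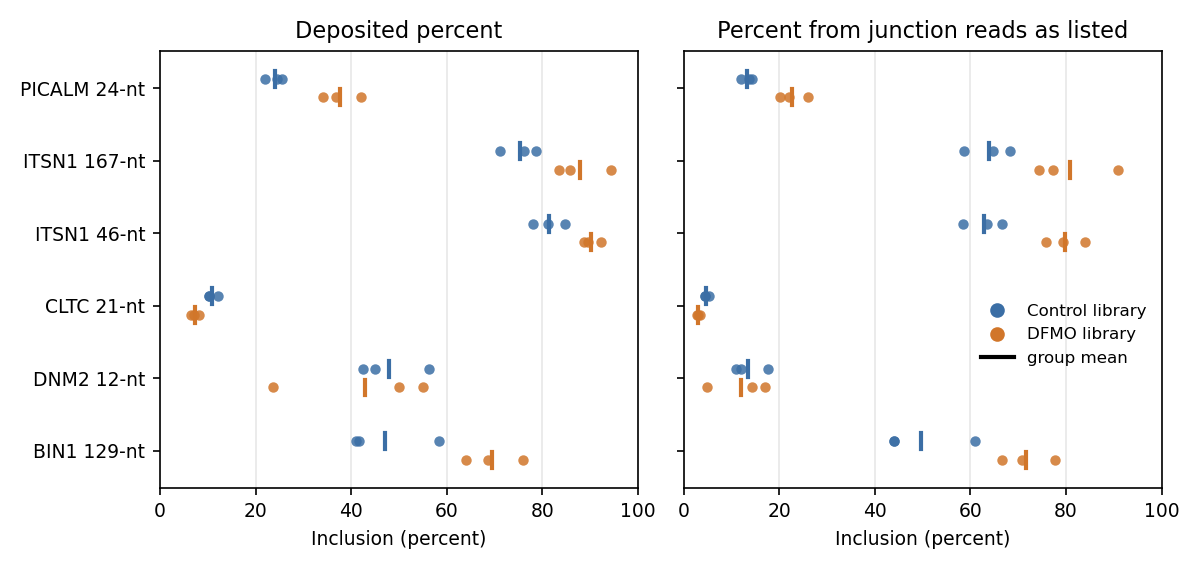
Inclusion in percent of 6 exons as deposited (left) and from the junction reads as listed (right), with 1 point per library and bars at the group means. The DNM2 12-nt exon moves from 23.6% to 56.4% on the left to 4.9% to 17.7% on the right, while the BIN1 129-nt exon changes little.

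ITSN1 also had an alternative acceptor at an exon of 180 nt (chr21:33750143-33750322), of which a shorter form lacks 111 nt. The longer form had 93.9%, 93.3% and 98.2% in Control and 87.5%, 76.8% and 82.4% with DFMO. All DFMO libraries were lower, on 51 to 110 reads, but the difference of -12.9 points did not pass the test (limma adjusted p = 0.0667). Of the 8 tested splice-site forms of the 10 genes 0 were called by limma, and 1 had an unadjusted p below 0.05. Over the whole table, 367 of 2926 acceptor forms and 334 of 2239 donor forms had such an unadjusted p in limma. The 2 DNM1 forms mirror each other, and the PICALM forms of each choice nearly do, so the 8 forms are not 8 separate choices. Of all tested forms, 1.16% of acceptor forms and 2.28% of donor forms were called.

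The neural long form of ITSN1 adds a guanine-nucleotide exchange region to the scaffold. The 12 exon entries that only this form holds (chr21:33856736-33886460) had at most 9 reads each in any library. Summed over the 12, the Control libraries gave 21, 13 and 40 reads, and the DFMO libraries 21, 21 and 19. The 22 entries of the region that both forms share, with inclusion above 90% in every library, gave medians of 184.5, 164 and 205.5 reads in the Control libraries, and 177.5, 147.5 and 138.5 in the DFMO libraries. The long-form exons were thus little read in both groups, and no choice within the long-form exons could be tested at this depth. ITSN2 differed. Its 10 long-form entries (chr2:24204245-24218013) gave medians of 32.5, 36 and 49.5 reads in the Control libraries, and 37.5, 32 and 35 in the DFMO libraries, against 54, 42.5 and 64.5, and 59.5, 47 and 51, in its shared region. This look at both ends of the genes was chosen after the data were seen.

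**Figure D4:**
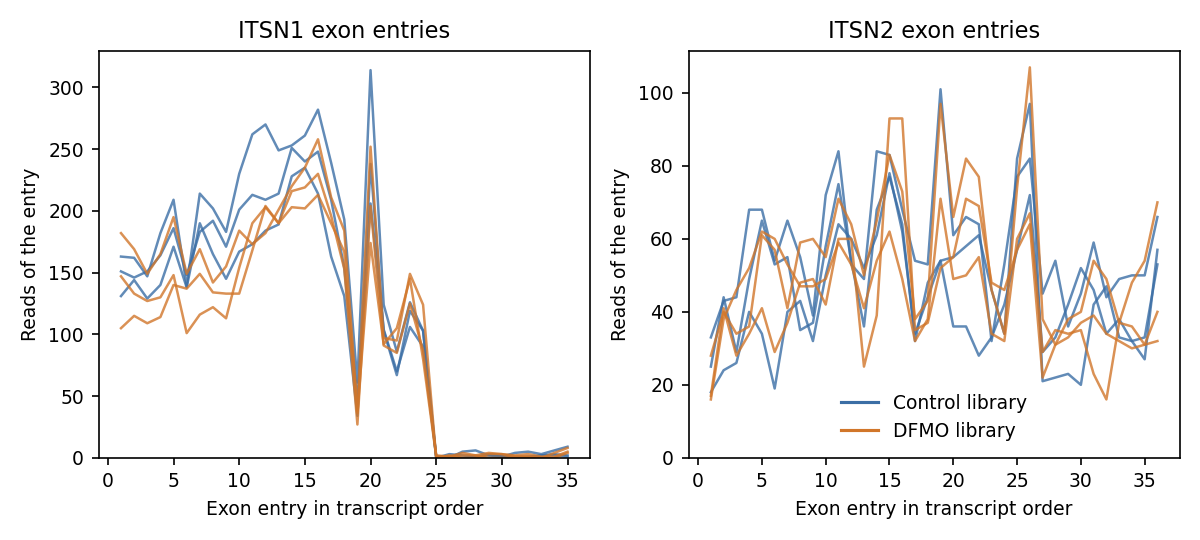
Reads (vertical axis) of the exon entries of ITSN1 (left) and ITSN2 (right) in transcript order, leaving out entries under 50% in every library, with 1 line per library, Control in blue and DFMO in orange. The last 11 plotted ITSN1 entries stay at 9 reads or fewer in all 6 libraries, and the last 10 plotted ITSN2 entries have 16 to 70 reads.

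The neural microexon of ITSN1, 15 nt long (chr21:33802430-33802444), had no entry of its own. Reads on the junction leaving it were 0 in all 6 libraries. Reads that skip it numbered 69, 71 and 86 in Control, and 89, 79 and 80 in the DFMO libraries. The entry that lists the first of these junctions has the coverage score N, so its 0 is not taken as a measured share. ITSN2 had no tested exon. Its 67-nt exon (chr2:24321814-24321880) missed the coverage score, with 17 to 32 reads and a range of 2.56% to 29.7% over the 6 libraries.

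The dynamins choose between alternative exons of 139 nt in the middle region of the protein. In DNM2, the widely expressed dynamin, both exons were in use. The upstream exon is at chr19:10796061-10796199 and the downstream exon at chr19:10797380-10797518, both on the plus strand and both coding. They share 97 of 139 bases (69.8%), and capitals mark the 42 positions where they differ.
DNM2 upstream 139-nt exon: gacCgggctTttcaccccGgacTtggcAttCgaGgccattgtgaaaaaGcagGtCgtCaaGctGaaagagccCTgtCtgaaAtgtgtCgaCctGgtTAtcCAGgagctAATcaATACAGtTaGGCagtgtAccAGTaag
DNM2 downstream 139-nt exon: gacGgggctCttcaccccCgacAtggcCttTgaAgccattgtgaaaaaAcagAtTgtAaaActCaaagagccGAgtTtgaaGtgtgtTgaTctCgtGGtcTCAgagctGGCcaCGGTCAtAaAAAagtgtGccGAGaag

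The upstream DNM2 exon had 45.1%, 41.6% and 44.0% in Control and 53.0%, 42.0% and 57.4% with DFMO. The groups overlapped, through DFMO replicate 2 (limma adjusted p = 0.29). The downstream exon had 63.7%, 62.8% and 62.5% in Control and 54.7%, 60.6% and 54.8% with DFMO. All DFMO libraries were lower there, and the difference of -6.27 points did not pass the test (limma adjusted p = 0.174). As a share of the inclusion reads of the pair, the upstream exon had 41.3%, 36.5% and 36.7% in Control and 46.1%, 40.1% and 43.3% with DFMO, and the groups overlapped.

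DNM1, the neuronal dynamin, has the same pair in its annotation, and its upstream exon (chr9:128224251-128224389) shares 107 of 139 bases with the upstream exon of DNM2. That exon was in nearly all DNM1 transcripts, with 94.95%, 88.4% and 94.2% in Control and 87.5%, 97.2% and 94.6% with DFMO. The groups overlapped (limma adjusted p = 0.84). A 52-nt entry that begins where its downstream partner begins stood between 1.64% and 5.38%. That entry ends before the 139-nt partner does, and no inclusion of the partner itself is given here. Reads of DNM1 are less certain than the others, because the gene has near-identical pseudogene copies.

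Dynamins also have exons of only 12 nt. The DNM2 12-nt exon (chr19:10808569-10808580), ggggagatcctg, had 42.4%, 45.0% and 56.4% in Control and 55.1%, 23.6% and 50% with DFMO. The groups overlapped, and DFMO replicate 2 was the lowest library (limma adjusted p = 0.708). Here the deposited percents multiply the odds by 6.0, and the junction reads as listed gave means of 13.5% and 12.1%. Both DNM1 12-nt exons missed the coverage score, with 30 to 51 reads at chr9:128239985-128239996 and 18 to 39 at chr9:128247924-128247935. Their deposited percents stood between 81.9% and 95.2% and between 75.2% and 98.1%, with odds multiplied by 6.6. A DNM1 exon of 106 nt ran from 3.83% to 18.3%, with DFMO replicate 1 the highest (limma adjusted p = 0.866). The factor on its odds differed between libraries, from 0.19 to 0.76.

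The light chains have exons that brain forms include, and the 54-nt exons of CLTA (chr9:36209267-36209320) and CLTB (chr5:176396479-176396532, minus strand) share 35 of 54 bases. Capitals mark the 19 positions where they differ.
CLTA 54-nt exon: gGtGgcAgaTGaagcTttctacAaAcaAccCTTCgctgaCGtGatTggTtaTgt
CLTB 54-nt exon: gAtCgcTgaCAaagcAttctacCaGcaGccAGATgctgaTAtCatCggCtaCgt

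CLTA showed its 54-nt exon at 0.09%, 0.07% and 0.42% in Control and 0.2%, 0.1% and 0.17% with DFMO, on 1405 to 1815 reads. Its other brain exon, of 36 nt (chr9:36210625-36210660), had 0%, 0.2% and 0.06% in Control and 0.24%, 0.04% and 0.23% with DFMO. A count of 0 would allow up to 0.165% to 0.216% at these depths, and the highest value of either exon was 0.42%. This limit too is on the high side, as 3 inclusion reads of 1593 gave the 54-nt exon 0.09% in Control replicate 1. The CLTA entries of 38 nt and 118 nt stood between 96.0% and 99.1%.

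CLTB had its 54-nt exon at 1.2%, 0.63% and 0.8% in Control and 2.51%, 2.7% and 1.86% with DFMO, on 457 to 694 reads. All DFMO libraries were above all Control libraries, although the exon stayed in few transcripts. An unannotated 97-nt CLTB entry (chr5:176406157-176406253) had 0.82%, 0.9% and 0.74% in Control and 2.21%, 2.15% and 1.61% with DFMO. These are the 2 CLTB exons counted above among those under 5%, and the main fit left both out. In the alternative without the percent filter neither passed the test (limma adjusted p = 0.357 and 0.637).

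CLTC, the heavy chain, had 1 tested exon, of 21 nt (chr17:59687001-59687021, plus strand).
CLTC 21-nt exon: gttgatgcaataaaggaaaag
It had 10.3%, 12.2% and 10.4% in Control and 6.55%, 8.24% and 7.05% with DFMO. All DFMO libraries were lower, and the difference of -3.69 points did not pass the test (limma adjusted p = 0.151). The factor on its odds was 2.5, and the junction reads as listed gave means of 4.7% and 3.05%.

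AMPH (amphiphysin I), the neuronal paralog of BIN1, was barely read. Its 22 exon entries had 4 reads in all over the 6 libraries, its 19 intron entries 2, and its splice-site forms 0. No inclusion could be measured for it.

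The junction-read level of each gene was taken as the mean over its covered exon entries of log2(1 + reads per 1000000 event reads). It is a stand-in for expression that also moves with inclusion, because an included exon is read at 2 junctions, and in bulk RNA fewer cells of a type and less RNA per cell cannot be told apart. The fold here is of 1 + scaled reads, which understates a change in the reads of a gene with few. None of the 9 measured genes differed by 1.5-fold on that scale, a size that 0.347% of 9232 genes passed together with the test. With 0.1 added in place of 1, 120 of all genes passed higher and 114 lower, against 20 and 12. Over all alternatives the differences of the 9 genes stayed between -0.32 (BIN1) and 0.40 (DNM1) in log2 units. In limma, 6 of the 9 had an unadjusted p below 0.05. At adjusted p below 0.05 alone, 1 gene was higher and 5 were lower, against 20.7% and 25.1% of all genes.

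DNM1 was the gene that rose. Its level was 1.19, 1.22 and 1.25 in Control and 1.45, 1.51 and 1.46 with DFMO, all above Control. The difference was 0.25 on the log2 scale (SE 0.032, limma adjusted p = 0.000369). Its relative DNM2 fell by 0.19 (SE 0.029, limma adjusted p = 0.000889), from 2.79, 2.78 and 2.83 in Control to 2.60, 2.60 and 2.63 with DFMO. The 2 dynamins thus moved in opposite directions, and the groups overlapped for neither. The pseudogene copies of DNM1 make its level, too, less certain than that of DNM2.

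BIN1 had levels of 1.30, 1.36 and 1.33 in Control and 1.15, 1.07 and 1.17 with DFMO, and fell by 0.20 (limma adjusted p = 0.0022). The fall came with higher inclusion of its called exons, which by itself adds reads. The clathrin genes CLTC and CLTB fell by 0.15 and 0.12 (limma adjusted p = 0.00835 and 0.0165), and ITSN1 by 0.12 (limma adjusted p = 0.0201). With the median in place of the mean over entries, BIN1, CLTC and ITSN1 no longer passed (limma adjusted p = 0.0694, 0.111 and 0.129), and CLTB did not pass without Control replicate 2 or DFMO replicate 3 (0.057 and 0.0553). Their limma adjusted p-values over all alternatives were 0.000929 to 0.0694 for BIN1, 0.00337 to 0.111 for CLTC, 0.0016 to 0.057 for CLTB and 0.0148 to 0.129 for ITSN1. ITSN1 also missed it without Control replicate 1 or 2 or DFMO replicate 3 (0.0525, 0.0655 and 0.0656). CLTA, ITSN2 and PICALM differed by -0.06, -0.01 and 0.02 and did not pass the test (limma adjusted p = 0.219, 0.888 and 0.695).

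**Figure D5:**
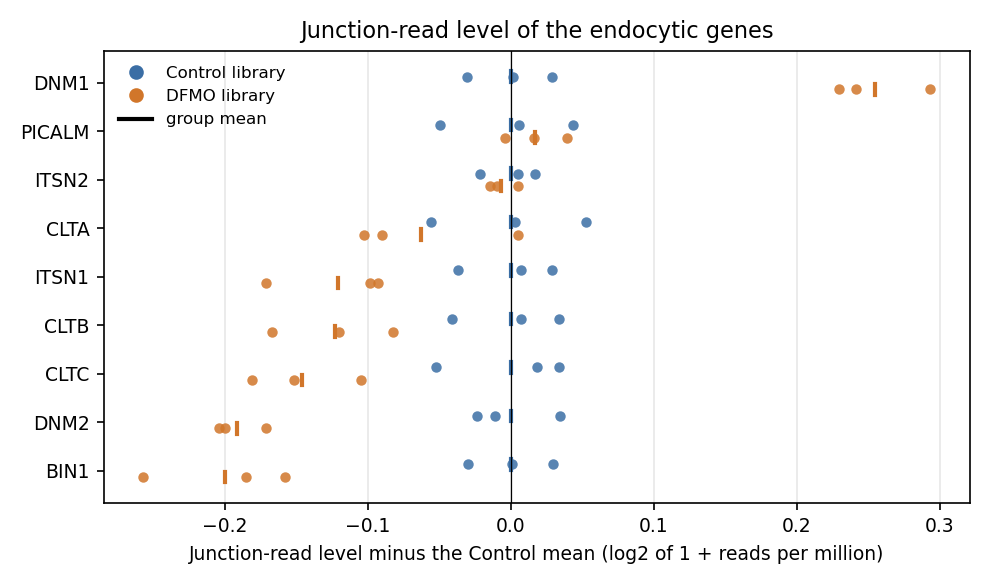
Junction-read level of 9 genes minus the Control mean, in log2 units of 1 + scaled reads, with 1 point per library and bars at the group means. The 3 DFMO libraries of DNM1, at levels of 1.45 to 1.51, lie above all Control libraries, and those of BIN1 and DNM2 lie below all Control libraries.

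A list of 68 further genes of clathrin-mediated endocytosis set the background, and all 68 were in the table. Of their 49 tested exons, in 23 genes, 1 was called higher and 1 lower. Over all 7500 tested exons, 2.71% were called higher and 0.747% lower, so nothing is read from this count. SNAP91 (AP180), the neuronal paralog of PICALM, had a 103-nt exon (chr6:83556143-83556245) at 20.4% ± 3.36 (SD, n = 3) in Control and 36.7% ± 6.69 (SD, n = 3) with DFMO. NUMB, an adaptor known from cell-fate decisions, had a 144-nt exon (chr14:73279281-73279424) at 40.5% ± 0.6 (SD, n = 3) in Control and 26.2% ± 4.22 (SD, n = 3) with DFMO. The limma adjusted p-values were 0.0136 and 0.00997. Of 12 tested introns 1 was called, a 5927-nt intron of EPS15L1 that was higher by 13.1 points (limma adjusted p = 0.0248). It had 25.8% ± 8.98 (SD, n = 3) in Control and 38.9% ± 7.03 (SD, n = 3) with DFMO. Of all tested introns, 3.8% were called. The balance of reads at the 2 ends of this intron is not given here, so its call is not taken as a measure of retention. Of 26 splice-site forms 0 were called by limma and 2 had an unadjusted p below 0.05.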

How the data were processed

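Splicing was measured in 3 Control and 3 DFMO libraries of SKNBE2 cells. Stranded mRNA libraries were made, per the labels' protocols, and the build was GRCh38, per the submitters' processing notes. Which aligner and quantifier made the values is not given in the sources used here. In the deposited table the authors give a percent per event and library, with a quality text that holds reads and a score. The inclusion and exclusion reads in that text gave the percent within 0.5 points in 100% of cases, so they carry the table's correction. The members and lists were chosen with earlier results of these data known, and named events were all called events, tested exons, the largest tested intron and site form per gene and, for genes with no tested exon, a well-read exon nearest 50%. Untested exons beyond these were named for their known roles or after their values were seen. No column of per-sample values was left unused.

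The log2 odds of inclusion (0.5 added to both reads) entered limma 3.58.1 (R 4.3.3), robust and with a trend on counting variance. Tests were two-sided, with Benjamini-Hochberg adjustment within exons, introns, acceptors and donors. Libraries of one group varied by 2.4 to 2.49 times counting variance. On simulated data, 91.8% of 98 exons changed by 20 points were recovered, all with at least 100 reads in each library. Recovery among exons with fewer reads is not given here. Gene levels used limma with a mean-variance trend. Alternatives were the scale, offset, read minimum, percent filter, trend, replicate block, each library left out, balanced introns and, added after the data were seen, junction reads as listed. Exons were annotated with GENCODE release 29.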

Additional observations from a re-analysis of the deposited data

How the results depend on the processing

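Among single events and gene levels, 352 alternative values kept their direction and side of the threshold, 32 no longer passed their threshold, 2 newly passed it and 14 changed sign. For events the threshold was the call, and for gene levels an adjusted p below 0.05. Without the variance trend 0 of the 4 called exons and 0 introns stayed called, and of all tested exons 12 were called higher and 2 lower, against 203 and 56. With 1 library left out, 1 to 2 exons were called. The PICALM 129-nt entry stayed called in each of these (-19.3 to -16.1 points). The BIN1 129-nt exon (19.2 to 28.1 points) lost the call without Control replicate 2, Control replicate 3, DFMO replicate 1 and DFMO replicate 3. The BIN1 72-nt entry (15.7 to 22.1 points) lost it without each library except DFMO replicate 1. Balanced introns gave 0 calls, and junction reads as listed gave 5 called exons. Of all tested exons, junction reads as listed called 276 higher and 84 lower, more than the main fit in both directions. When events of any mean percent were kept, 3 exons were called, the PICALM 24-nt exon being lost.

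The replicate block gave 3 called exons, again without the PICALM 24-nt exon, and left the calls of introns at 1, of splice-site forms at 0 and of gene levels at 0. Same-numbered libraries did not deviate together (correlations over exons of -0.020, -0.002 and -0.007), so the numbers are not taken as a pairing.

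All 14 changes of sign were in values that had not passed the test. With 1 library left out, the DNM1 139-nt exon ran from -1.47 to 3.39 points (-1.46 and -0.12 also below 0), the DNM1 106-nt exon from -4.81 to 2.43 (1.34 and 2.11 also above 0) and the DNM2 12-nt exon from -11.1 to 4.62. The DNM2 3-nt acceptor form ran from -0.91 to 2.56 (-0.27 also below 0), the DNM2 621-nt intron from -2.63 to 0.28 and the PICALM level from -0.0076 to 0.0391. Junction reads as listed gave 3.07 points for the DNM1 106-nt exon. Intron entries gave -0.00601 for the PICALM level, and scaling by the median of log ratios 0.0013 for ITSN2. The cause was not tested. The tested exons of BIN1, ITSN1 and DNM1 had at most 224 reads in a library, and whether depth bears on their changes was not tested.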

Other observations

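On the wider endocytosis list, 46 of the 68 genes were measured. At an adjusted p below 0.05 (limma), the junction-read level of 7 rose and that of 14 fell. Of these, 0 passed 1.5-fold of 1 + scaled reads as well, and 26 of the 46 had an unadjusted p below 0.05 (limma). Over all 9232 genes 1914 rose and 2320 fell, but 2153 rose and 2046 fell with scaling by the median of log ratios, so which direction held more genes turned with the scaling. AP2M1, the mu subunit of the AP-2 adaptor, was highest on this list at 0.26 on the log2 scale (limma adjusted p = 0.0001), and SNAP91 rose by 0.22 (limma adjusted p = 0.0005). The F-BAR gene TRIP10 fell by 0.38 and PACSIN3 by 0.35 (limma adjusted p = 0.0001 and 0.0003). Their mean levels were 0.93 and 0.81 in Control and 0.55 and 0.46 with DFMO. At such low levels the added 1 makes these falls smaller than those of the reads themselves. The genes were named after their values were seen, as the largest in each direction.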
